A study of Xenopus laevis with 8 samples.

Results

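On the *Xenopus laevis* array 5 of 32635 probe sets each report 1 gene of the Spemann organizer or of the axial midline that forms from it: *gsc.L*, *gsc.S*, *chrd.1.S*, *not.L* and *shh.L*. They were chosen by the gene listed for the probe set, and each of the 5 genes, of 11303 genes so listed, has 1 probe set. *X. laevis* is allotetraploid, and .L and .S after a symbol mark its homeologs on a long and on a short chromosome. All 5 passed the filter on low values, a group mean of 4 or more on the log2 scale in any of the groups, as did 10805 of the 15495 probe sets listed with 1 gene.

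The organizer is the dorsal lip of the gastrula, which secretes antagonists of ventralizing signals and so allows neural and dorsal mesodermal fates. Its cells become prechordal plate and notochord, a narrow rod under the middle of the neural plate, and the floor plate forms above it. At the neurula stage these tissues express Goosecoid in the prechordal plate, Chordin and Not in the notochord, and Sonic hedgehog in notochord and floor plate. A cut along the midline runs through this tissue, so that each side of an embryo receives a share of it.

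The 8 arrays measured RNA of neurulae at the open neural plate stage, in 4 groups of 2. Double morphants had received translation-blocking morpholinos against the xSuv4-20h1 and xSuv4-20h2 mRNAs, which encode the enzymes that di- and trimethylate lysine 20 of histone H4. Control morphants had received a control morpholino of unrelated sequence. Embryos of both kinds were injected on 1 side only, together with a fluorescent dextran that marked it, so the groups were the injected and the uninjected sides of double morphants, and the injected and the uninjected sides of control morphants. Each array held 6 pooled embryo sides, and the injected and uninjected pools of a pair came from corresponding embryos. The 2 arrays of each group came from independent experiments, numbered 1 and 2 here by the replicate number in the sample titles. That a number marks the same pair of sides, and the same experiment in both kinds of morphant, is assumed from these titles. The sample labels give 40 ng of morpholino in total, placed in neighbouring blastomeres, and the methods text describes another dose in a single blastomere. Which of these descriptions applies to the arrays is not settled by the sources used here.

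The authors' GCRMA values, on a log2 scale, ran between 2.14 and 15.3, with array medians from 5.09 to 5.19. Of all values 31.7% lay under 2.5, near the lowest value. The morpholinos act on translation, and the mRNAs of *kmt5b.L* (7.82 to 8.99) and *kmt5b.S* (8.35 to 9.30), which encode xSuv4-20h1, are therefore no check of the depletion. With 2 arrays per group an exact permutation test of a single gene cannot give a p-value below 0.333. Tests were therefore fitted with limma over all 10805 probe sets, and a probe set was called when its local fdr, the false discovery rate estimated at its own statistic, was under 0.2. The number of arrays limits the precision, and the p-values measure the spread between 2 pools from separate experiments. A pool with fewer midline cells and one with less RNA per cell cannot be told apart, nor can either be told apart from a cut that ran beside the midline. The paper describes slight asynchrony in development as an unspecific effect of morpholino injection. Its part in these values was not tested.

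Goosecoid is a homeobox repressor of the organizer and the prechordal plate. Its long-chromosome copy *gsc.L* (probe set Xl2.801.1.A1_at) had a mean of 6.33 over the 8 arrays, at percentile 25.2 of the probe sets tested. In double morphants *gsc.L* had values of 6.16 and 6.39 in the injected sides of experiments 1 and 2, against 7.09 and 6.76 in the uninjected sides. In control morphants *gsc.L* had values of 5.92 and 4.21 in the injected sides, against 6.96 and 7.14 in the uninjected sides. The injected sides were below the uninjected sides in all 4 pairs and the groups did not overlap in either kind of morphant, with the lowest value in the control injected pool of experiment 2. With 2 arrays per group such separation is common: both injected sides lay below both uninjected sides for 23.5% of the probe sets tested in double morphants and for 12.9% in control morphants, and both lay above for 28.2% and 18.4%.

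The short-chromosome copy *gsc.S* (Xl2.797.1.S1_at) varied least of the 5 genes and had the lowest mean, 5.55, at percentile 16.2. In double morphants its values were 5.60 and 5.92 in injected sides, against 6.24 and 5.84 in uninjected sides. In control morphants they were 4.80 and 4.55 in injected sides, against 5.59 and 5.87 in uninjected sides. Sides of double morphants overlapped, and both control injected pools lay below the other 6 arrays.

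Chordin, a secreted antagonist that binds bone morphogenetic proteins (BMPs) and keeps them from their receptors, gave the brightest signal of the 5 probe sets. For *chrd.1.S* (Xl2.3549.1.S1_a_at) the double morphants had values of 12.01 and 10.60 in injected sides, against 11.76 and 11.91 in uninjected sides. The control morphants had 11.21 and 8.73 in injected sides, against 11.57 and 11.99 in uninjected sides. The injected pools of experiment 2 were the lowest, the control pool more so than the double morphant pool, and the other 6 arrays lay between 11.21 and 12.01.

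Not is a homeobox repressor needed for the notochord. The values of *not.L* (Xl2.1066.1.A1_at) in double morphants were 8.63 and 7.62 in injected sides, against 8.02 and 8.48 in uninjected sides. In control morphants they were 7.61 and 6.42 in injected sides, against 7.92 and 8.43 in uninjected sides. Double morphant sides overlapped, control morphant sides did not, and the control injected pool of experiment 2 was again the lowest of the 8.

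Sonic hedgehog is the secreted ligand by which notochord and floor plate pattern the neural tube and the somites, and *shh.L* (Xl2.866.1.S2_at) had the widest spread of the 5. In double morphants its values were 9.69 and 7.11 in injected sides, against 9.70 and 9.44 in uninjected sides. In control morphants they were 8.71 and 2.76 in injected sides, against 9.00 and 9.40 in uninjected sides. The control injected pool of experiment 2 was close to the lowest value on the arrays, the double morphant injected pool of that experiment was the next lowest, and the other 6 lay between 8.71 and 9.70. The standard deviation of *shh.L* over the 8 arrays was 2.36, at percentile 99.9 of the probe sets tested, whereas that of *gsc.S* was 0.58, at percentile 84.1.

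**Figure D1:**
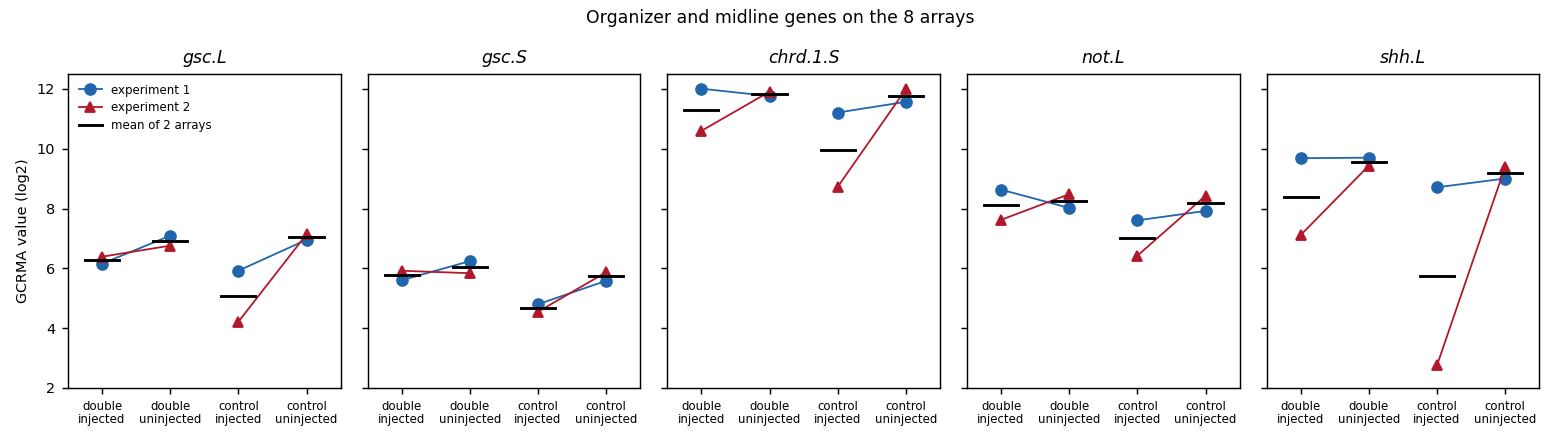
Log2 GCRMA values of the 5 genes (1 panel each) on the 8 arrays, with circles for experiment 1, triangles for experiment 2, lines between the sides of a pair, and bars at the mean of 2 arrays. The control injected pool of experiment 2 is the lowest point of every panel, down to 2.76 for *shh.L*, while the uninjected pools stay close together.

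Because the sides of a pair came from corresponding embryos, each pair gives a difference of its own. In experiment 2 the injected minus uninjected differences of control morphants were -2.93 for *gsc.L*, -1.32 for *gsc.S*, -3.27 for *chrd.1.S*, -2.01 for *not.L* and -6.64 for *shh.L* on the log2 scale. The difference of *shh.L* ranked lowest of all 10805 probe sets, and the uninjected signal was 99.8 times the injected one, a ratio that rests on an injected value near the lowest of the array. Differences under -1 were found for all 5 genes in this pair, against 3.67% of the probe sets tested, whose median was 0.04. In experiment 1 the same differences were smaller, from -1.03 for *gsc.L* to -0.29 for *shh.L*, with all 5 negative as were 44.1% of the probe sets tested. The spread over all probe sets was also narrower there (SD 0.355, against 0.558 in experiment 2). Of the 5 genes 1, *gsc.L*, was under -1, beside 1.31% of the probe sets tested. Both *gsc.L* and *gsc.S* (-0.79) lay below the 5th percentile of all probe sets, -0.59.

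In double morphants the pair of experiment 2 had differences of -0.37 for *gsc.L*, 0.08 for *gsc.S*, -1.31 for *chrd.1.S*, -0.86 for *not.L* and -2.32 for *shh.L*. These followed the order of the control pair for *chrd.1.S*, *not.L* and *shh.L* at a smaller size. In experiment 1 they were -0.94 for *gsc.L*, -0.64 for *gsc.S*, 0.25 for *chrd.1.S*, 0.61 for *not.L* and -0.02 for *shh.L*, so that only the Goosecoid copies had clearly lower values in the injected pool. Over the 4 pairs, *gsc.L* and *shh.L* were lower in the injected side in 4 and the other 3 genes in 3, and 17.2% of the probe sets tested were lower in 4.

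**Figure D2:**
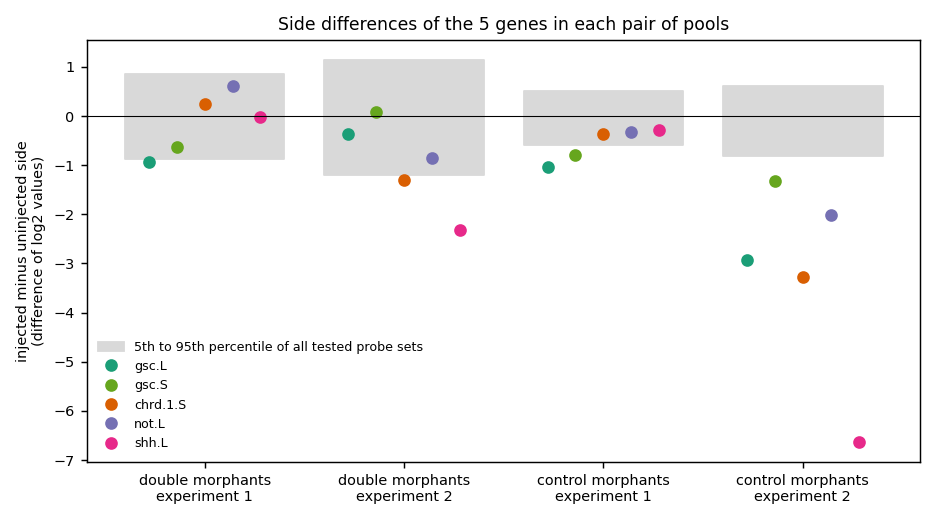
Difference of log2 values, injected minus uninjected side, of the 5 genes in the 4 pairs of pools, over a grey band from the 5th to the 95th percentile of the 10805 probe sets tested. In control morphants of experiment 2 all 5 points lie below the band, which starts at -0.81, and in double morphants of experiment 2 only *shh.L* and *chrd.1.S* do. In experiment 1 both Goosecoid copies lie below the band in control morphants, and *gsc.L* does in double morphants.

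Expressed as the part of a pair's summed signal (values taken out of the log scale) that came from the injected pool, *shh.L* had 49.7% in experiment 1 and 16.7% in experiment 2 of double morphants, against 45.0% and 0.992% in control morphants. For *chrd.1.S* the injected pool held 54.3% and 28.7% of the signal in double morphants, against 43.8% and 9.41% in control morphants. For *not.L* it held 60.5% and 35.5% in double morphants, against 44.5% and 19.9% in control morphants. The 3 genes of notochord and floor plate thus were split more evenly in experiment 1 than in experiment 2. The Goosecoid copies had another pattern: *gsc.L* had 34.3% and 43.6% in the injected pool in double morphants and 32.8% and 11.6% in control morphants, and *gsc.S* had 39.1% and 51.4% in double morphants and 36.7% and 28.6% in control morphants. The share assumes equal RNA from both sides, which the array values do not show.

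The summed signal of both sides was lower in experiment 2 for all 5 genes in double morphants. In control morphants it was lower for all but *gsc.S* (75.9 and 82.0 in experiments 1 and 2), by little for *not.L* (437 and 431). The share of all probe sets with a lower sum in experiment 2 is not given here, so these counts have no background beside them. The sums of 2 genes follow. For *shh.L* the summed signal was, in experiments 1 and 2, 1656 and 832 in double morphants and 933 and 683 in control morphants. For *chrd.1.S* it was 7601 and 5399 in double morphants and 5410 and 4499 in control morphants. Between the experiments (2 minus 1) the injected pools of control morphants differed by -5.95 for *shh.L*, -2.49 for *chrd.1.S* and -1.18 for *not.L* on the log2 scale. The uninjected pools differed by 0.40, 0.42 and 0.51 in the same order of genes.

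The comparison of sides within control morphants gives the side difference without the specific morpholinos. Here both Goosecoid copies were lower in the injected sides and passed the local fdr threshold, 2 of 5 genes, whereas 2.99% of all probe sets tested were called lower and 0.805% higher. The log2 fold change of *gsc.L* was -1.98 (SE 0.52, 95% interval -3.26 to -0.70, local fdr 0.00387, adjusted p = 0.79 with limma). That of *gsc.S* was -1.05 (SE 0.22, interval -1.60 to -0.51, local fdr 4.87e-05, adjusted p = 0.679). These calls rest on the local fdr alone, since no probe set of the array reached an adjusted p under 0.05 in this comparison. The fitted null was narrower than the theoretical one (SD 0.889). With the theoretical null 2 of the 5 genes were also called lower, beside 1.66% of all probe sets called. With z values in place of the moderated statistic it was again 2, beside 0.777%. The called probe sets were also the 2 dimmest of the 5, with control injected values between 4.21 and 5.92. At an unadjusted p under 0.05, 264 probe sets were higher (2.44%) and 305 lower (2.82%), both Goosecoid copies among the lower ones.

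The other 3 genes had lower means with wide intervals and were not called in control morphants. The log2 fold changes were -1.81 for *chrd.1.S* (interval -3.87 to 0.25), -1.16 for *not.L* (interval -2.40 to 0.08) and -3.47 for *shh.L* (interval -8.05 to 1.12). Where a pool is left out, its group keeps 1 array, which is assumed to vary like the arrays of the other groups, so a call then rests on their spread. Without the control injected pool of experiment 1, all 5 genes were called lower (2.53% of all probe sets were called in either direction), with -6.44 for *shh.L* and -3.05 for *chrd.1.S*, where experiment 2 alone stood for the injected sides. Without that of experiment 2 *shh.L* was at -0.49 and *chrd.1.S* at -0.57. Without either injected pool of double morphants *not.L* was called too (-1.16). The value of *gsc.L* was -1.13 without the control injected pool of experiment 2. Without the control uninjected pool of experiment 2 *gsc.L* was at -1.89. With the pair of sides as a block *gsc.L* lost its call (SE 0.48, adjusted p = 0.191 with limma), beside 3.68% of all probe sets called. Its log2 fold change was -1.98 in both fits, and without the block the SE was 0.52 and the adjusted p 0.79.

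Within double morphants none of the 5 genes was called (2.36% of all probe sets were, 1.06% higher and 1.3% lower), and adjusted p-values from limma ran from 0.525 to 0.913. At an unadjusted p under 0.05, 11.6% of all probe sets were higher and 9.11% lower, and none of the 5 genes was among them. The log2 fold changes were -0.65 for *gsc.L* (interval -1.93 to 0.63), -0.28 for *gsc.S* (interval -0.82 to 0.27), -0.53 for *chrd.1.S* (interval -2.59 to 1.53), -0.12 for *not.L* (interval -1.36 to 1.11) and -1.17 for *shh.L* (interval -5.76 to 3.42). All 5 were negative, with a median of -0.53 beside 0.03 for all probe sets. Without the injected pool of experiment 2 the last 3 turned positive, at 0.17 for *chrd.1.S*, 0.38 for *not.L* and 0.12 for *shh.L*, and *not.L* was at 0.11 without the uninjected pool of that experiment.

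Whether the specific morpholinos changed the side difference was asked by the difference between the effects in double and in control morphants. It was positive for all 5 genes, which means that injected sides were less far below uninjected sides in double than in control morphants, and none was called (3.05% of all probe sets were, 1.28% higher and 1.78% lower). The values were 1.33 for *gsc.L* (SE 0.74), 0.77 for *gsc.S* (SE 0.32), 1.28 for *chrd.1.S* (SE 1.19), 1.04 for *not.L* (SE 0.72) and 2.30 for *shh.L* (SE 2.65), with adjusted p-values from 0.735 to 0.971 with limma. Only *gsc.S* had an unadjusted p under 0.05, at 0.0494 by limma before adjustment, beside 3.17% of all probe sets higher and 3.6% lower at that threshold. Within experiment 1 the differences were 0.10 for *gsc.L*, 0.15 for *gsc.S*, 0.61 for *chrd.1.S*, 0.93 for *not.L* and 0.28 for *shh.L*. Within experiment 2 they were 2.56, 1.40, 1.95, 1.15 and 4.32 in the same order of genes. All 5 were positive in both experiments, as were 37.7% of the probe sets tested. Without the control injected pool of experiment 2 the value of *shh.L* was -0.68, and without that of experiment 1 *gsc.L* (2.18), *chrd.1.S* (2.52) and *shh.L* (5.27) were called, beside 2.36% of all probe sets, with 1 array left in that group.

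Injected sides were then compared between the 2 kinds of morphant. Only *gsc.S* was called, higher in double morphants by 1.09 on the log2 scale (SE 0.22, interval 0.54 to 1.63, local fdr 0.0554, adjusted p = 0.0838 with limma), whereas 5.8% of all probe sets were called, 2.51% higher and 3.29% lower, and 0.453% had an adjusted p under 0.05. The values of *gsc.L*, *gsc.S* and *not.L* did not overlap between the groups, the last by a margin at the second decimal, and 20.6% of all probe sets tested were likewise higher in both double morphant pools than in both control pools. The other log2 fold changes were 1.21 for *gsc.L*, 1.34 for *chrd.1.S*, 1.11 for *not.L* and 2.66 for *shh.L*, with adjusted p-values between 0.315 and 0.543. All 5 were higher in double morphants within each experiment, as were 36% of the probe sets tested. The *shh.L* difference was 0.97 in experiment 1 and 4.35 in experiment 2, and its fitted value was -0.31 without the control injected pool of experiment 2. With the experiment as a block *gsc.S* was not called by the local fdr, although its adjusted p was 0.0335. Its call was also lost without the double morphant injected pool of experiment 2 (0.93), and without the control injected pool of experiment 1 (1.21) or 2 (0.96). Without that of experiment 1, *gsc.L* (2.06) and *shh.L* (5.64) were called in its place, beside 2.76% of all probe sets, with 1 array left for the control injected sides. This comparison and the previous one share the injected pools.

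Between the uninjected sides of the 2 kinds of morphant none of the 5 genes was called (2.64% of all probe sets were, 1.41% higher and 1.23% lower), none had an unadjusted p under 0.05 (1.58% of all probe sets were higher and 1.73% lower), and the adjusted p-values from limma were 1. The log2 fold changes were -0.12 for *gsc.L* (interval -1.40 to 1.16), 0.31 for *gsc.S* (interval -0.23 to 0.86), 0.06 for *chrd.1.S* (interval -2.01 to 2.12), 0.08 for *not.L* (interval -1.16 to 1.31) and 0.37 for *shh.L* (interval -4.22 to 4.95). The intervals leave room for differences of over 1 for 4 of the 5 genes. The 3 smallest values changed sign when 1 pool was left out. Without the double morphant uninjected pool of experiment 2 they were 0.046 for *gsc.L*, -0.018 for *chrd.1.S* and -0.16 for *not.L*, and without the control uninjected pool of experiment 1 they were -0.16 for *chrd.1.S* and -0.18 for *not.L*.

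With the sides averaged, *gsc.S* was higher in double morphants by 0.70 (SE 0.16, interval 0.31 to 1.09, local fdr 0.0607, adjusted p = 0.131 with limma) and the other 4 were not called, whereas 5.03% of all probe sets were, 2.54% higher and 2.5% lower. Their values were 0.54 for *gsc.L*, 0.70 for *chrd.1.S*, 0.59 for *not.L* and 1.52 for *shh.L*. With the experiment as a block *gsc.S* was not called (adjusted p = 0.0476), nor was it without the double morphant injected pool of experiment 2 (0.62), the control injected pool of experiment 1 (0.76) or 2 (0.64), or the control uninjected pool of experiment 1 (0.63). Without the control injected pool of experiment 1, *gsc.L* (0.97) and *shh.L* were called higher, beside 2.45% of all probe sets and again with 1 array in that group.

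**Figure D3:**
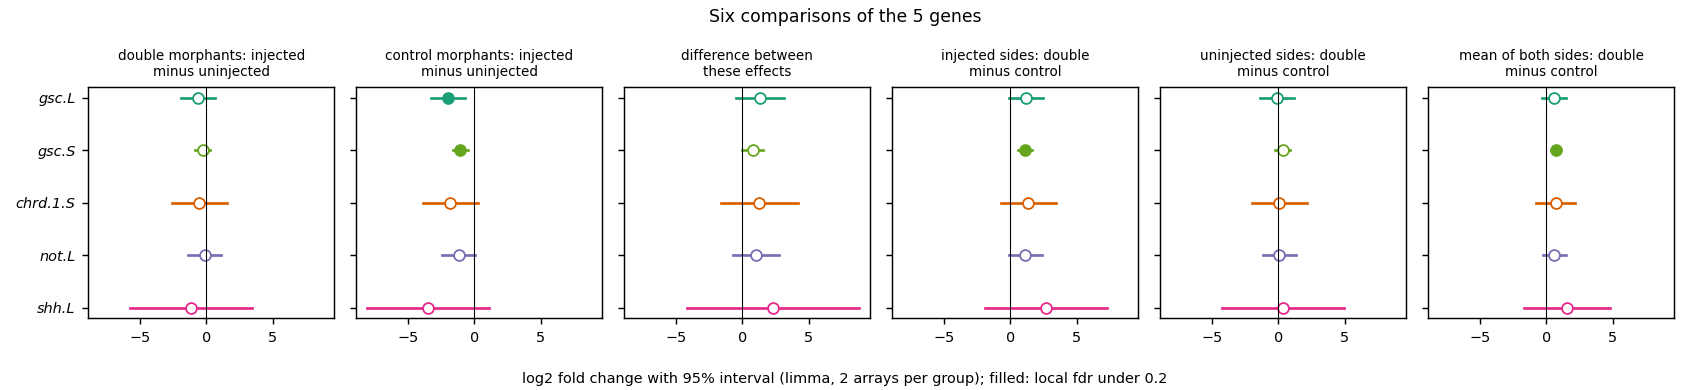
Log2 fold changes of the 5 genes (rows) in the 6 comparisons (panels) with 95% intervals from limma, filled where the local fdr was under 0.2. In control morphants both Goosecoid copies are called at -1.98 and -1.05, and *shh.L* has the widest interval in every panel.

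Among themselves *chrd.1.S*, *not.L* and *shh.L* were closest across the 8 arrays, which share embryos within a pair and, by their numbers, experiments across groups. Pearson correlations of log2 values were 0.99 between *chrd.1.S* and *shh.L*, 0.96 between *chrd.1.S* and *not.L* and 0.92 between *not.L* and *shh.L*. The Goosecoid copies correlated with each other by 0.86, *gsc.L* correlated with *chrd.1.S* and with *shh.L* by 0.89, and *gsc.S* correlated with *shh.L* by 0.68, the lowest value of the 10 pairs. These correlations are a description.

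Genes of a like pattern were looked for after the mean of each experiment was subtracted. Nearest to *chrd.1.S* were *xfrp* (r = 1.00 when rounded), *admp.S* (0.99) and *fbn3.L* (0.99). Nearest to *shh.L* were *nog.L*, *admp.S* and *xfrp* (0.99 each). Admp is a BMP ligand made in the organizer itself, noggin a BMP antagonist of organizer and notochord, and *fbn3.L* encodes a fibrillin of the extracellular matrix. Nearest to *not.L* were *fstl1.L* (1.00 when rounded), a probe set of *ventx1.1.L* (Xl2.1420.1.A1_at, 0.99) and *rcn3.L* (0.99). That *ventx1.1.L* probe set had a side difference of -1.65 in the control pair of experiment 2. Other probe sets of the gene had 0.38 (Xl2.203.1.S1_at) and 0.08 (Xl2.50138.2.A1_at) there. Nearest to *gsc.L* were *lats1.S*, *sf3b3.L* and *wif1.S* (0.97 to 0.99), and nearest to *gsc.S* were *rcbtb1.S*, *clp1.L* and *snrnp200.L* (0.97 to 0.98). All correlations are over 8 arrays, the low injected pools of experiment 2 included. Before the subtraction *lats1.S* correlated with *gsc.L* by 0.55, *rcbtb1.S* with *gsc.S* by 0.47 and *fstl1.L* with *not.L* by 0.75. The other picked probe sets had 0.88 to 0.99 on that scale. In the control pair of experiment 2, *admp.S* had 5.11 in the injected pool, against 9.04 in the uninjected pool, *nog.L* 5.35 against 7.04 and *fbn3.L* 7.39 against 10.97.

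The homeolog *not.S* has 2 probe sets, which had a pattern like that of *not.L*. In experiment 2 its side differences were -1.88 and -2.16 in double morphants and -3.32 and -3.02 in control morphants. In experiment 1 they were 0.88 and 0.48 in double morphants, against -0.01 and 0.14 in control morphants. None of these was called, with log2 fold changes of -1.67 and -1.44 in control morphants. The transcripts of both copies are similar, and the probe sets may share signal.

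Other organizer and midline genes were described as lists, with the 5 genes left out. Of 28 probe sets of organizer factors and secreted antagonists, 5 were called lower and none higher in control morphants, against 2.99% lower and 0.805% higher of all probe sets, with a median log2 fold change of -0.58 beside 0.04. They were 1 of 2 probe sets of the Wnt antagonist *dkk1.S* (-0.76), the head homeobox gene *otx2.S* (-0.45), 1 of 2 of *admp.S* (-1.61) and both probe sets of *frzb2.L* (-1.64 and -1.22), which encodes a secreted Frizzled-related protein. In double morphants none of the 28 was called (median -0.35), with values from -2.16 for *nog2.L* to 1.15 for *cer1.S*. The difference between the effects had no call either (median 0.32) and ran from -1.21 for *nog2.L* to 1.45 for *cer1.S*. Nor had the injected sides (median 0.30), which ran from -0.89 for *bmp2.L* to 1.53 for *admp.S*. Between uninjected sides *nog2.L*, a noggin paralog, was higher by 1.78 and both probe sets of the LIM homeobox gene *lhx1.L* were lower (-0.79 and -0.47), and with both sides averaged 1 of them was lower (-0.61). Of all probe sets 1.41% were called higher and 1.23% lower between uninjected sides, and 2.5% lower with the sides averaged. Of 25 probe sets of notochord and prechordal mesoderm, a list that shares *dkk1.S*, *cer1.S*, *nog.L*, *not.S* and the *frzb* and *foxa4* genes with the organizer list, only *dkk1.S* was called, lower in control morphants. Their median was -0.31 in control morphants and -0.23 in double morphants, and the highest and lowest values in the 5 comparisons without a call belonged to *cer1.S*, *col9a1.L*, *ccn2.L* and *foxa2.L* and lay between -1.39 and 1.51.

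The pair differences show which of these genes had low values together with the 5. In the control pair of experiment 2, *col9a1.L*, a collagen of the notochord sheath, had 2.14 in the injected pool, against 6.92 in the uninjected pool. That injected value is the lowest on the arrays, which limits how far the difference of *col9a1.L* can be read. The difference of *col2a1.L* was -2.30. In the double morphant pair *col9a1.L* had 3.79 in the injected and 7.41 in the uninjected pool, and the difference of *col2a1.L* was -2.52. Differences in the control pair were -3.07 for *lefty.S* and -2.68 for *fst.L*, which encode antagonists of Nodal and of Activin. Brachyury (*tbxt.L* and *tbxt.S*), which is also made around the closing blastopore, differed by -0.08 and -0.22 in that pair, and *foxa1.L* and *foxa2.L* by -0.18 to 0.20. Of the organizer list 23 of 28 probe sets were negative in the control pair of experiment 2 (median -0.79) and 17 of 28 in that of experiment 1 (median -0.11). Of all probe sets tested 43.5% and 44.1% were negative in the same pairs.

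Targets and partners of the hedgehog signal were described in the same way. Of 12 probe sets of the hedgehog pathway, 1 was called lower in control morphants, against 2.99% of all probe sets. It was *scube2.L* (-0.60), whose product helps to release the ligand from cells. The median of the list was 0.08 in control morphants and 0.01 in double morphants, where the values ran from -0.74 for *scube2.L* to 1.11 for *spop.S* with no call. In the difference between the effects and between the injected sides, 1 probe set was called higher, *spop.S* (1.33 in both), which encodes a ubiquitin ligase adaptor that acts on Gli proteins. Its other probe set was not called, and 1.28% and 2.51% of all probe sets were called higher in these comparisons. Between uninjected sides the list ran from -0.34 for *smo.L* to 0.25 for *boc.L*, a co-receptor, and with both sides averaged from -0.40 for *smo.L* to 0.66 for *spop.S*. The *smo.L*, *gli2.L*, *gli2.S* and *gli3.L* probe sets, for the signal transducer and transcription factors of the pathway, lay between -0.73 and 0.51 in all 4 pairs. The pathway's target genes *gli1.S*, *ptch1.S* and *hhip.L* are on the array but did not pass the filter on low values. Of 13 probe sets of floor plate and ventral midline, *nkx2-1.L*, a ventral forebrain factor, was called lower in double morphants (-2.78, adjusted p = 0.0686 with limma) and in control morphants (-1.43, adjusted p = 0.79), and no other. Of all probe sets 1.3% were called lower in double morphants and 2.99% in control morphants. In the 4 comparisons without a call the highest and lowest values of that list belonged to *pou5f3.2.L*, *nkx2-1.L* and *foxa2.L* and lay between -1.35 and 1.97.

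Genes of BMP signalling, its targets and ventral factors formed another list, which shares the *bmp2* genes with the organizer list. Of its 56 probe sets, 2 were called higher in control morphants, against 0.805% of all probe sets, and the median was 0.36. They were 1 of 4 of the BMP transducer *smad1.S* (0.60) and 1 of 2 of *twsg1.S* (0.74), which encodes a binding partner of Chordin. In double morphants 1 of 2 probe sets of the target gene *id4.S* was lower (-1.09), against 1.3% of all probe sets, with a median of 0.15. Between injected sides *bmper.L*, for a BMP-binding secreted protein, was lower in double morphants (-1.99) and so was *id2.L* (-0.79), against 3.29% of all probe sets. The median was -0.46 beside -0.01 for all probe sets. Between uninjected sides *ventx3.2.S* (-0.64) and both probe sets of *twsg1.S* (-0.42 and -0.49) were lower, against 1.23% of all probe sets. With both sides averaged, 5 probe sets were lower, against 2.5% of all probe sets. Of these 5, *bmper.L* (-1.31), *twsg1.L* (-0.80), *ventx3.2.S* (-0.64) and *id2.L* (-0.55) had the largest changes. The difference between the effects had no call, with *szl.S* at -2.01 and *bmp1.S* at 0.62. In the control pair of experiment 2, where the 5 organizer genes were lowest, 8 of these 56 probe sets (41 genes) were negative and the median was 0.49. Of all probe sets tested 43.5% were negative in that pair.

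Markers of muscle and paraxial mesoderm had low values in the injected pools of experiment 2, as had *chrd.1.S*, *not.L* and *shh.L*, whereas *gsc.S* differed by 0.08 and *gsc.L* by -0.37 in the double morphant pair. All 27 probe sets of this list were negative in the control pair of experiment 2 (median -2.45), and 23 of 27 in the double morphant pair (median -2.94). Of all probe sets tested 43.5% and 47% were negative in the same pairs. In experiment 1 the medians were -0.40 in double morphants and -0.30 in control morphants. The summed signal of this list was 47610 and 16107 in injected sides and 54921 and 54493 in uninjected sides of double morphants, and 50634 and 12141 in injected sides and 51882 and 43097 in uninjected sides of control morphants. In the control injected pool of experiment 2 *tnnt3.S* (2.14) and *tpm1.L* (2.79) were near the lowest value on the arrays, whereas the presomitic genes *msgn1.L* (11.04) and *myf5.L* (10.41) were not. The 5 genes had medians of -0.86 in the double morphant and -2.93 in the control pair of experiment 2. Within the muscle list the differences were uneven. In the double morphant and control pairs of experiment 2, a *tpm1.L* probe set had -6.14 and -5.52. In the same order *tbx6.L* had 0.59 and -0.36, and *msgn1.L* had 0.13 and -0.13. In the comparison of sides within control morphants 1 probe set of the list was called lower, against 2.99% of all probe sets. The part of these differences in the values of the 5 genes was not tested.

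Neural plate markers summed to between 29196 and 35547 on the 8 arrays. They had medians of -0.03 in the double morphant pair and -0.37 in the control pair of experiment 2, epidermal markers 0.01 and 0.33, and endodermal markers 0.22 and 0.25. Cement gland markers were negative for 8 of 8 probe sets in all 4 pairs, with medians of -2.09 and -1.55 in double morphants and -0.67 and -0.44 in control morphants. Between 43.5% and 47% of all probe sets tested were negative in each pair. Of the 8 cement gland probe sets 2 were called lower in double morphants, against 1.3% of all probe sets. In the difference between the effects 2 were, against 1.78%. In control morphants and between injected sides 1 was, against 2.99% and 3.29%. Markers of blood and ventral mesoderm (13 probe sets) had medians of -0.71 and -0.84 in the double morphant pairs of experiments 1 and 2, and 0.26 and 0.22 in the control pairs. Both probe sets of *spib.L*, a transcription factor of early myeloid cells, were called lower in the difference between the effects and between injected sides, against 1.78% and 3.29% of all probe sets. None of the list was called in the other 4 comparisons. One *spib.L* value, 2.29 in the double morphant injected pool of experiment 1, was near the lowest of the array. The homeolog *spib.S* differed by -0.35 and 0.07 in the double morphant pairs and was not called. Of 20 neural plate probe sets 1 was called higher in double morphants (1.06% of all) and 2 lower in control morphants (2.99%). Of 20 endodermal ones 1 was higher in control morphants (0.805%). Between injected sides 3 were lower (3.29%), and with the sides averaged 2 (2.5%). Of 19 epidermal ones 1 was called in each direction in double morphants. In each other comparison 1 was (2.64% to 5.8% of all), except with the sides averaged. The part of these lists in the values of the 5 genes was not tested. The *otx2* genes stand in the organizer, neural plate and cement gland lists.

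**Figure D4:**
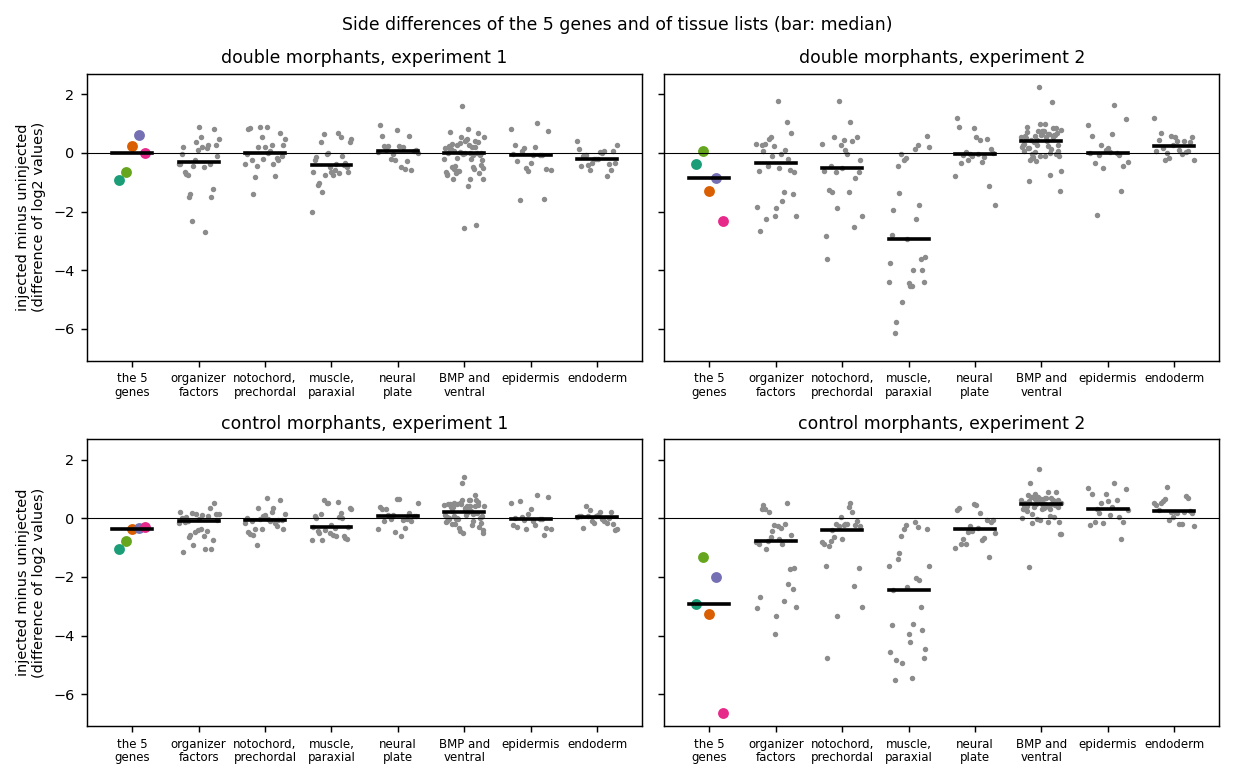
Difference of log2 values, injected minus uninjected side, in each of the 4 pairs (panels) for the 5 genes (coloured as in the plot of side differences) and for probe sets of 7 tissue lists (grey points), with a black bar at each median. In experiment 2 the muscle list has medians of -2.94 in double and -2.45 in control morphants, while the median of the 5 genes is -0.86 in double and -2.93 in control morphants.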

How the data were processed

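The authors deposited log2 expression values made with GCRMA, whose version is not given in the sources used here, and these were used as given. Present calls by MAS5, on which the authors filtered, could not be computed without probe intensities, so a group mean of 4 or more in any group was required. Of 32635 probe sets, 15495 had 1 gene in the platform annotation, 279 several and 16851 none, and 10 control probe sets with a gene were left out. All 5 symbols matched a RefSeq gene. No sequence or coordinate was used here.

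One limma model (limma 3.58.1, R 4.3.3) with 4 group means gave 6 comparisons over 10805 probe sets (8219 genes). It had no block for the pair of sides or the experiment, which were alternatives only. As in the methods, the call was a local fdr under 0.2 (empirical null, written anew, tested on simulated data), beside Benjamini-Hochberg adjusted p-values. With the filter also changed, the calls need not match those of the paper. In the difference between the effects the Oct-25 gene *pou5f3.2.L* was at 1.97. The paper's list of its most upregulated genes gives Oct-25 the same log2 fold change. That list goes by fold change, and by the local fdr *pou5f3.2.L* was not called here. All probe sets were fitted, and 1 per gene was an alternative. The pairing of sides, used for the pair differences and the block alternatives, follows the methods. Deviations from group means correlated across probe sets by 0.64 and 0.76 between paired sides of double and control morphants, and by 0.48 to 0.80 between other groups. No other per-sample columns existed. Outside the marker lists, named list genes are those called (at most 4 per direction) or, without a call, the highest and lowest. Further genes in the pair differences, homeolog and marker paragraphs were chosen after their values were seen. Genes and lists were chosen with earlier results of these data known.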

Additional observations from a re-analysis of the deposited data

How the results depend on the processing

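Of 365 fold changes of the 5 genes under other settings, single arrays left out apart, 354 kept direction and side of the threshold, 5 lost and 3 gained a call and 3 turned sign. The 3 were side differences of double morphants without both injected pools of experiment 2, an alternative chosen after seeing the data: *chrd.1.S* 0.17, *not.L* 0.38 and *shh.L* 0.12. The cause of these changes was not tested. Leaving out 1 array at a time gave, within double morphants, -1.24 to 0.17 for *chrd.1.S*, -0.63 to 0.38 for *not.L* and -2.46 to 0.12 for *shh.L*. For *shh.L* it gave -0.68 to 5.27 in the difference between effects and -0.31 to 5.64 between injected sides. Between uninjected sides it gave -0.29 to 0.046 for *gsc.L*, -0.16 to 0.27 for *chrd.1.S* and -0.18 to 0.33 for *not.L*. The number of the 5 genes called ran from 0 to 5 within control morphants, 0 to 3 for the difference, 0 to 2 between injected sides and 0 to 2 with the sides averaged. Over the same settings 0.907% to 4.23%, 1.28% to 4.71%, 2.76% to 6.23% and 2.45% to 5.85% of all probe sets were called in these 4 comparisons, and a group left with 1 array was assumed to vary like the others.

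Within control morphants 1 gene was called when the pair of sides was a block, beside 3.68% of all probe sets. At an adjusted p under 0.05 it was 0 genes and 0% of all probe sets. With the most variable probe set per gene 3 genes were called (3.98% of all), as with arrays shifted to 1 median (4.05%). Without a filter on low values 1 was called in the difference. Between injected sides and with the sides averaged, 0 genes were called with the experiment as a block. The same held with z values in place of the moderated statistic. At an adjusted p under 0.05 it was also 0 genes, beside 0.453% of all probe sets between injected sides and 0% with the sides averaged. The experiment block changed no other call of the 5 genes. The share of all probe sets called moved with the setting as well. Within control morphants it was 7.96% without the filter and 2.58% with the experiment as a block, beside 3.79% in the main fit. Whether a call gained or lost under a setting reflects such a change was not tested. Values near the lowest of the array, as *shh.L* in 1 pool, limit how far a ratio can be read.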
